A study of Homo sapiens with 49 samples.

Results

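AP-1 is a family of dimeric transcription factors, and the genes described here are those of its JUN subunits (JUN, JUNB and JUND), its FOS subunits (FOS, FOSB, FOSL1 and FOSL2), the partner ATF3, and IER2, an immediate early gene that is often induced with them. They were taken by gene symbol from the annotation of an Affymetrix HT HG-U133 Plus PM array, which assigned 19 of its 54715 probe sets to these 9 genes. Of the 19, 8 probe sets were bright enough to be tested, and they represented 5 genes: JUN (3 probe sets), JUNB (1), JUND (1), IER2 (1) and FOSL2 (2). The other 11 probe sets, among them every one of FOS, FOSB, FOSL1 and ATF3, stayed at the dim end of the scale and are described only by their levels.

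The cells were Ishikawa cells, an established line from a human uterine epithelial adenocarcinoma. They were exposed for 72 h to ethinyl estradiol, the synthetic estrogen of oral contraceptives. The series asked how gene expression changes along concentrations of this estrogen. The 49 arrays fall into 8 groups. Vehicle cultures received ethanol, and treated cultures received ethinyl estradiol at a concentration of 0.1, 0.3, 1, 3, 10, 100 or 1000 pM. The 0.3 pM group holds 7 arrays and every other group 6. All groups shared phenol red-free medium with CSS as its supplement, the same share of ethanol, and a daily renewal of part of the treatment medium. Nothing in the labels states that the replicates of a group were grown separately, so p-values here reflect the spread among arrays, part of which may be technical. Every value comes from 1 cell line.

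The arrays were alike in brightness, with array medians of 2.95 to 3.05 (log2) and 38.2% to 39.6% of probe sets above a log2 level of 4, which was used as the floor of detection. No pair of arrays held identical values. The 5 epithelial markers (EPCAM, KRT8, KRT18, KRT19 and CDH1) were above the floor on every array, as were PAX8 and ESR1, while the 3 immune, 3 endothelial and 3 stromal markers stayed under it on every array (highest value 3.30). On 4 arrays the control probe set at the 3′ end of beta-actin exceeded that at the 5′ end by 2.67 to 4.62, against 0.80 to 2.06 on the other 45. They were replicate 5 of vehicle, replicate 2 of 0.3 pM, and replicate 6 of both 3 pM and 1000 pM. Such a difference is read as a sign of RNA quality. For each of the 5 tested genes the change at 1000 pM is also given without them.

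JUN and FOS proteins bind DNA as dimers of basic leucine zippers. JUN proteins can pair with each other, with FOS proteins and with some ATF proteins, whereas FOS proteins need a JUN partner. JUN and FOS are classical immediate early genes, switched on within minutes of a growth factor by MAP kinases, and JUND and FOSL2 usually vary more slowly. FOSL2, also called FRA2, lacks the strong activation domain of FOS. The estrogen receptor is known to act on some promoters through AP-1 dimers without touching DNA itself.

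The promoters of the 5 genes with tested probe sets are shown first, because these genes moved in different directions and the sequences just before their start sites can be set side by side. RefSeq (GRCh38.p14) gave a promoter for 8 of the 9 genes. The 250 bases before the start site follow, 5′ to 3′ on the strand of the gene, with the matches of the searched motifs in capitals.
JUN, chr1:58784048-58784297, minus strand: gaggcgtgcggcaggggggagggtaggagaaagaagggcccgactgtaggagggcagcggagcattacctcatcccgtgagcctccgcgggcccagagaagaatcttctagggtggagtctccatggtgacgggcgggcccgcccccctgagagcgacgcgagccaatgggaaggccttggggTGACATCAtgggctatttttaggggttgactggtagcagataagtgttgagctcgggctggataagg
JUNB, chr19:12791236-12791485, plus strand: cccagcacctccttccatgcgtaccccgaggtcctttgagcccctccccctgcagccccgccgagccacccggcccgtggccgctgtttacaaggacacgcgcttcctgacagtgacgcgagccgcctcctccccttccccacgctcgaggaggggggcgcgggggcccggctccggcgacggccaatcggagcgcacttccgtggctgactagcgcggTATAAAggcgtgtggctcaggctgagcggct
JUND, chr19:18281623-18281872, minus strand: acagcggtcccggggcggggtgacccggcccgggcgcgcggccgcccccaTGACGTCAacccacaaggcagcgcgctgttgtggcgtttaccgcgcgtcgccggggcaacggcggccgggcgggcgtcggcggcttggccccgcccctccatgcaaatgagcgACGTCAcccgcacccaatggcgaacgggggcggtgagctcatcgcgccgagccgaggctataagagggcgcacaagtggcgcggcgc
IER2, chr19:13150161-13150410, plus strand: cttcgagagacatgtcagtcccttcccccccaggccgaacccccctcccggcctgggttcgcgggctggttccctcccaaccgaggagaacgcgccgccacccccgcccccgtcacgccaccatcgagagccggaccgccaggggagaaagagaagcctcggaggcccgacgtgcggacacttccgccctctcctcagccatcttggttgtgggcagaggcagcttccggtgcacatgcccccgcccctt
FOSL2, chr2:28392608-28392857, plus strand: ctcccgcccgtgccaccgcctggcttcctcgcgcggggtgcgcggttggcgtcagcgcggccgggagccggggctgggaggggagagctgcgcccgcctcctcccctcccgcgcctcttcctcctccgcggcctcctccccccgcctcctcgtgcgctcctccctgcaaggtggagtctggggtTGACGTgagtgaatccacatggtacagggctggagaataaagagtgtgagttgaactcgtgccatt

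The motifs were searched on both strands as exact letters. The AP-1 element TGANTCA was found in none of the 8 genes' windows (6.57% of all 35116 RefSeq promoters of this length hold it), and AGGTCA, the core of an estrogen response element, was found in 1 ATF3 promoter (12.1% of all promoters). The full estrogen response element (0.0399% of all promoters) and the CArG box bound by SRF (1.16%) were found in none of the 8 genes' windows. The cyclic AMP response element TGACGTCA was found in the JUND window, 200 bases before the start (1.65% of all promoters). After the sequences had been seen, TGACATCA, a variant of that element, and its shorter form TGACGT, which lies within TGACGTCA, were added to the search. TGACATCA began 67 bases before the start of JUN and 123 bases before that of 1 ATF3 promoter (2.37% of all promoters). TGACGT (7.1%) began 66 bases before the start of FOSL2, 64 before that of FOS and 60 before that of FOSB, and it occurred 3 times in JUND, with 2 of the 3 inside the full element. A TATAAA box (10.7%) began 31 bases before the start of JUNB, 33 before that of FOS, 30 before that of FOSB and 230 before that of the other ATF3 promoter. The IER2 window held none of the motifs. These matches say which letters are in the windows, and a window without a match says only that the letters are not there.

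JUN, the founding subunit of AP-1, fell with the concentration of ethinyl estradiol and was called lower at 10, 100 and 1000 pM. The values of its brightest probe set come first. In vehicle its log2 level ran from 6.98 through a median of 7.21 to 7.43, and from 0.1 to 3 pM all arrays lay between 6.86 and 7.41. At 10 pM the lowest, median and highest arrays were at 6.36, 6.75 and 6.86, at 100 pM at 6.12, 6.35 and 6.58, and at 1000 pM at 6.00, 6.26 and 6.36. The arrays of each of these 3 concentrations all lay below the lowest vehicle array, so these groups did not overlap with vehicle. The share of all genes without overlap is given below for 100 and 1000 pM and was not computed for 10 pM. The mean went from 7.21 ± 0.17 (SD, n = 6) in vehicle to 6.71 ± 0.18 at 10 pM, 6.34 ± 0.17 at 100 pM and 6.23 ± 0.13 (SD, n = 6) at 1000 pM. By limma with Benjamini-Hochberg adjustment over all tested probe sets, JUN fell by 0.50 at 10 pM (SE 0.08, adjusted p = 2.08e-04), by 0.87 at 100 pM (SE 0.08, adjusted p = 1.07e-10) and by 0.98 at 1000 pM (SE 0.08, adjusted p = 1.90e-12). The last is a level 1.97-fold lower. Without the 4 arrays of high actin difference the change at 1000 pM was −0.96 ± 0.09 SE. RNA came from whole cultures, so a smaller share of cells with the transcript and less of it per cell cannot be told apart.

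The other JUN probe sets read lower levels and pointed the same way. The probe set 201466_PM_s_at went from 4.46, 4.61 and 5.03 (lowest, median, highest) in vehicle to 3.44, 3.99 and 4.19 at 1000 pM, without overlap. At 3 pM it read 4.14, 4.22 and 4.40, below every vehicle array, with a change of −0.46 ± 0.13 SE that was not called (limma adjusted p = 0.70). What share of all probe sets lay without overlap at 3 pM was not computed. This probe set fell by 0.54 at 10 pM (adjusted p = 0.0329), by 0.82 at 100 pM (adjusted p = 1.53e-05) and by 0.78 at 1000 pM (adjusted p = 2.90e-05). Its call at 10 pM was lost under 13 of 23 alternatives, and its 1000 pM mean of 3.91 lay under the floor. The probe set 201465_PM_s_at was at 4.33, 4.64 and 5.55 in vehicle and at 3.62, 4.27 and 4.70 at 1000 pM, which overlapped. It fell by 0.74 at 100 pM (adjusted p = 0.0147), a call that was lost without vehicle replicate 5 or 100 pM replicate 3 (highest adjusted p = 0.0796), and it had a change of −0.61 ± 0.20 SE at 1000 pM (limma adjusted p = 0.0615). The brightest probe set, 201464_PM_x_at, carries the suffix that the manufacturer gives to probe sets whose probes can match other sequences, and it is the one meant below where JUN is written without a probe set.

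**Figure D1:**
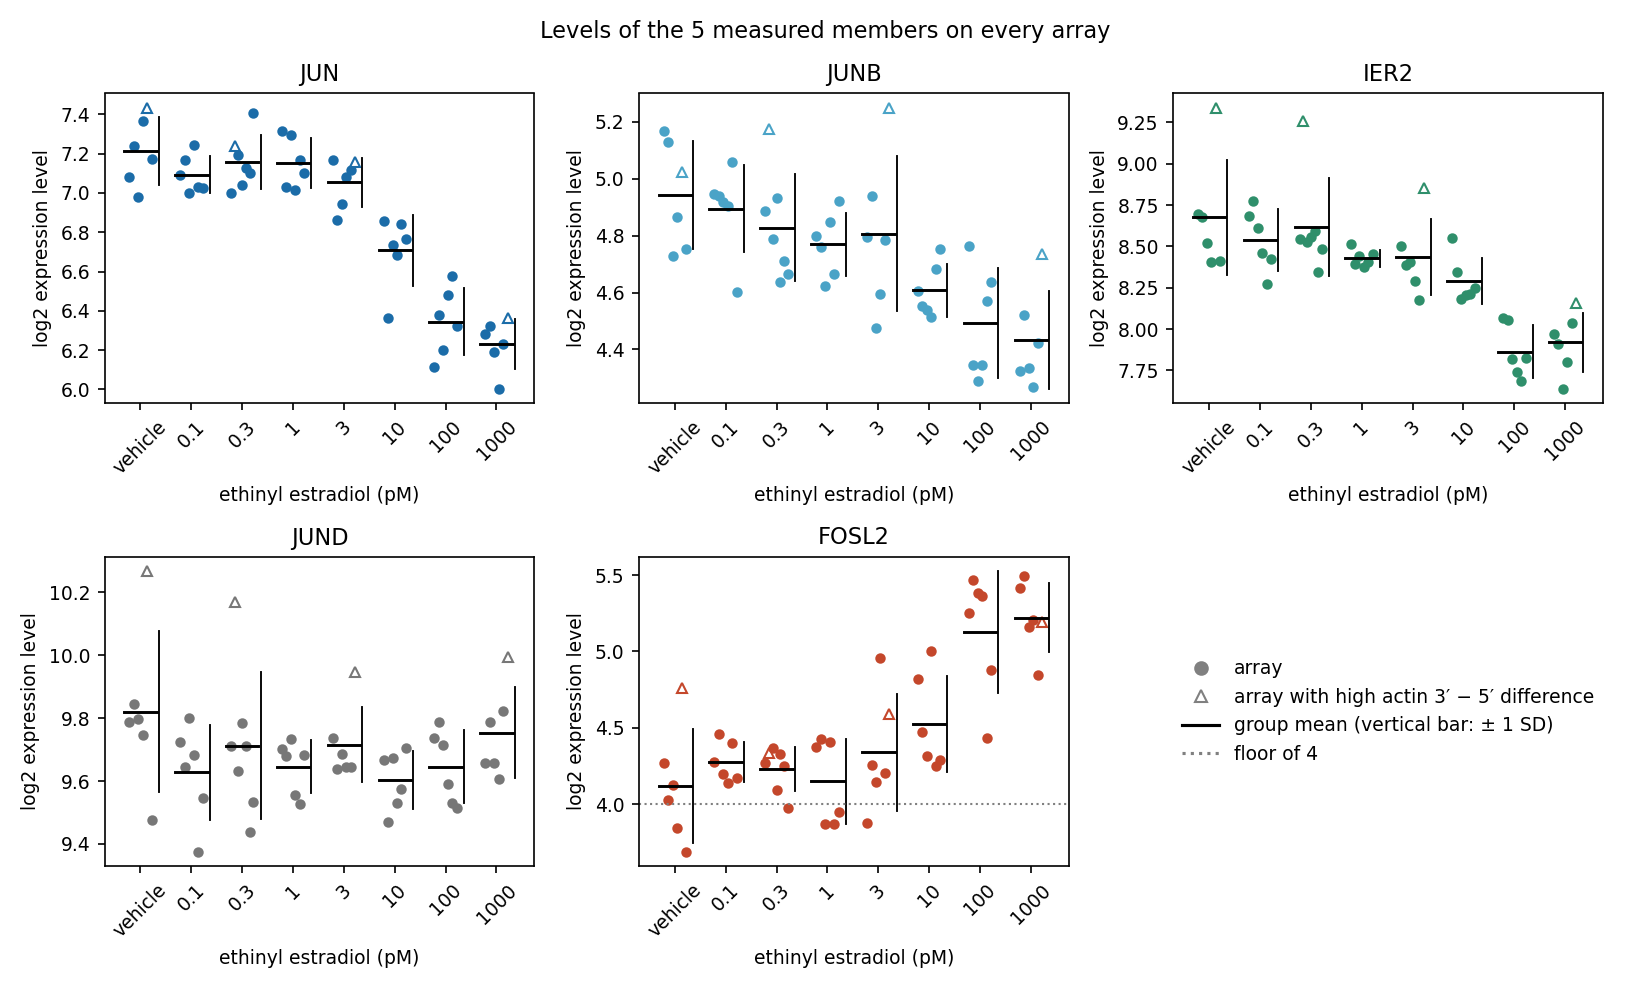
Log2 expression level (y axis) of JUN, JUNB, IER2, JUND and FOSL2 on each of the 49 arrays, by concentration of ethinyl estradiol (x axis, pM). Points are arrays, open triangles the 4 arrays with a high actin difference, horizontal bars group means and vertical bars ± 1 SD. JUN and IER2 lie lower at 100 and 1000 pM than on any vehicle array, JUND stays near 9.7, and FOSL2 climbs from near the floor of 4 to between 4.85 and 5.49 at 1000 pM.

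JUNB, the subunit that often restrains JUN in growth control, also fell, but less and with overlapping groups. Its log2 level was 4.73, 4.94 and 5.17 (lowest, median, highest) in vehicle, 4.51, 4.58 and 4.75 at 10 pM, 4.29, 4.46 and 4.76 at 100 pM, and 4.27, 4.38 and 4.74 at 1000 pM. Most arrays of the 2 highest concentrations lay below all vehicle arrays, but the highest array of each reached the lowest vehicle array. At 1000 pM that array was replicate 6, 1 of the 4 with a high actin difference, and the next was at 4.52, below every vehicle array. Without the 4 arrays the change at 1000 pM was −0.55 ± 0.10 SE. By limma JUNB fell by 0.45 at 100 pM (SE 0.11, adjusted p = 0.00447) and by 0.51 at 1000 pM (SE 0.11, adjusted p = 9.28e-04), a 1.42-fold lower level, with 6 of 6 arrays below the vehicle mean at both. At 10 pM the change was −0.34 ± 0.11 SE (adjusted p = 0.193). The call at 100 pM was lost when only the vehicle and 100 pM arrays were fitted (adjusted p = 0.0899).

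JUND, the JUN subunit that resting cells usually keep at a steady level, was the brightest probe set of the JUN genes and was called at no concentration. It was at 9.48, 9.79 and 10.27 (lowest, median, highest) in vehicle, 9.51, 9.65 and 9.79 at 100 pM, and 9.61, 9.72 and 9.99 at 1000 pM. The groups overlapped throughout, and the highest vehicle array was replicate 5, 1 of the 4 with a high actin difference. The change at 1000 pM was −0.07 (95% interval −0.25 to 0.12, limma adjusted p = 0.765), and at 100 pM it was −0.17 (−0.36 to 0.01, adjusted p = 0.22). Without the 4 arrays these were −0.02 and −0.08. These intervals allow a small fall of JUND. Both other JUND probe sets were under the floor on every array (2.05 to 2.98).

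IER2, a nuclear protein encoded by an immediate early gene, was called lower at the same concentrations as JUNB. Its level was 8.41, 8.60 and 9.34 (lowest, median, highest) in vehicle, 8.18, 8.23 and 8.55 at 10 pM, 7.68, 7.82 and 8.07 at 100 pM, and 7.64, 7.94 and 8.16 at 1000 pM. All arrays of the 2 highest concentrations lay below every vehicle array, whereas the 10 pM arrays overlapped with vehicle. By limma IER2 fell by 0.81 at 100 pM (SE 0.12, adjusted p = 5.91e-06) and by 0.76 at 1000 pM (SE 0.12, adjusted p = 1.90e-05), a 1.69-fold lower level. At 10 pM the change was −0.38 ± 0.12 SE (adjusted p = 0.209). Its highest vehicle value (9.34) and its highest value at 0.3 pM (9.26) came from 2 of the 4 arrays with a high actin difference. Without the 4 arrays IER2 fell by 0.68 at 100 pM and by 0.67 at 1000 pM (SE 0.08 for each), so the fall was called without them too.

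FOSL2 was the only tested gene of the 5 to rise. Its probe set 228188_PM_at was at 3.69, 4.07 and 4.76 (lowest, median, highest) in vehicle, 4.25, 4.39 and 5.00 at 10 pM, 4.43, 5.30 and 5.47 at 100 pM, and 4.85, 5.20 and 5.49 at 1000 pM. Vehicle arrays straddled the floor, with 4 of 6 above it. The 1000 pM arrays all lay above the highest vehicle array, while at 100 pM the lowest array fell within the vehicle range. By limma FOSL2 rose by 1.01 at 100 pM (SE 0.17, adjusted p = 3.14e-05) and by 1.10 at 1000 pM (SE 0.17, adjusted p = 4.83e-06), with 6 of 6 arrays above the vehicle mean at both. The second is a 2.15-fold higher level, which is uncertain in size because the vehicle mean of 4.12 ± 0.38 (SD, n = 6) lay at the floor. At 10 pM the change was 0.41 ± 0.17 SE (adjusted p = 0.396). The highest vehicle array was again replicate 5, and without the 4 arrays the rise at 1000 pM was 1.24 ± 0.17 SE.

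The second FOSL2 probe set, 225262_PM_at, was above the floor on 11 of 49 arrays: 4 at 100 pM, 5 at 1000 pM, and 1 each at 3 and 10 pM. It therefore entered the tests through the groups in which it was high, and its call is no separate support. In vehicle it read 3.34, 3.49 and 3.68 (lowest, median, highest) and at 1000 pM 3.94, 4.22 and 4.27, without overlap. Its changes were 0.73 ± 0.16 SE at 100 pM (limma adjusted p = 0.0014) and 0.66 ± 0.16 SE at 1000 pM (adjusted p = 0.00402), which against the floor are levels at least 1.16-fold and 1.11-fold higher. The remaining 3 FOSL2 probe sets were under the floor on every array (1.79 to 3.31).

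**Figure D2:**
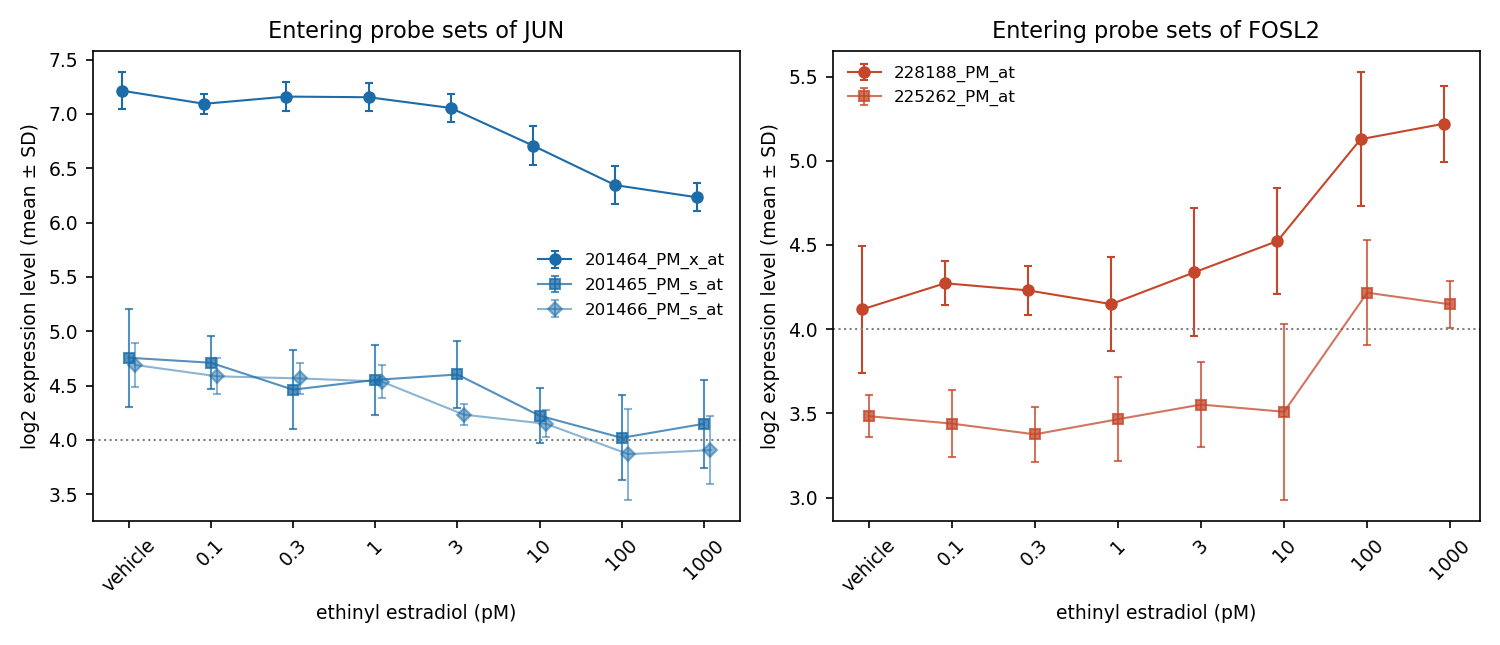
Log2 expression level (y axis, mean ± SD over 6 or 7 arrays) of the tested probe sets of JUN (left) and FOSL2 (right) by concentration of ethinyl estradiol (x axis, pM); the dotted line is the floor of 4. The 3 JUN probe sets all end lower than they start and both FOSL2 probe sets end higher, with 225262_PM_at crossing the floor between 10 pM (3.51) and 100 pM (4.22).

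The other FOS subunits and ATF3 were not detected as present. FOS, the partner first described with JUN, read 2.51 to 3.50 over the 49 arrays, FOSB, its closest relative, 2.06 to 2.75, and FOSL1, also called FRA1, 2.11 to 3.63, all under the floor. The best ATF3 probe set, for a stress-induced ATF protein that pairs with JUN, read 3.12 to 4.13 and passed the floor on 3 of 49 arrays, 1 each in vehicle, 3 pM and 1000 pM. Its other probe sets stayed between 2.20 and 3.77. These arrays therefore show only that the 4 genes were at or under the level that can be read at 72 h, in every group.

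Counted by the probe set that stands for each gene, 3 of the 5 tested genes were called lower at 1000 pM (JUN, JUNB, IER2) and 1 higher (FOSL2). Of all 11075 genes tested, 3.77% were called lower and 2.58% higher at that concentration. At 100 pM the same 4 genes were called in the same directions, against 5.03% lower and 3.21% higher of all genes. JUN was the 1 gene of the 5 called at 10 pM, where 0.217% of all genes were called lower. From 0.1 to 3 pM none of the 5 was called against vehicle by limma. Over all tested probe sets at 1000 pM, 2.78% were called lower and 2.14% higher, and of the 8 probe sets described here 4 were called lower (2 of JUN, JUNB, IER2) and 2 higher (both of FOSL2, of which 225262_PM_at entered only through the groups where it was high). The F test over the 8 groups called JUN (adjusted p = 2.49e-15), FOSL2 (2.46e-07), IER2 (7.91e-07) and JUNB (0.00125), and not JUND (0.905), against 6.35% of all genes.

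Groups that did not overlap were rarer than calls. At 1000 pM the arrays of JUN and IER2 all lay below vehicle (1.65% of all genes did so) and those of FOSL2 all above (1.56%). At 100 pM JUN and IER2 again lay below vehicle (2.37% of all genes), and of the 5 genes none lay wholly above (1.99% of all genes). Every comparison with a concentration uses the same 6 vehicle arrays, so these counts are not independent of each other.

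Between neighbouring concentrations the probe sets that stand for IER2 and FOSL2 had their largest change from 10 to 100 pM. That step is wider in concentration than those just below it. The probe set that stands for JUN changed most from 3 to 10 and from 10 to 100 pM. The dimmer JUN probe set 201466_PM_s_at differed in this, with changes of −0.30 from 1 to 3 pM, −0.08 from 3 to 10 pM and −0.28 from 10 to 100 pM (SE 0.13 for each), none of them called by limma. From 3 to 10 pM JUN changed by −0.35 ± 0.08 SE, with all 10 pM arrays below the lowest 3 pM array but no call by limma (adjusted p = 0.166). The share of all genes without overlap in that step was not computed. From 10 to 100 pM JUN fell by a further 0.36 (SE 0.08, adjusted p = 0.0206), in a comparison that called 0.172% of all genes lower. That call was lost without any of 10 pM replicates 1, 3, 5 and 6 or 100 pM replicates 1 and 3 (highest adjusted p = 0.116). In the same step IER2 changed by −0.43 ± 0.12 SE (adjusted p = 0.127) and FOSL2 by 0.60 ± 0.17 SE (adjusted p = 0.098). Same-numbered arrays of 10 and 100 pM deviated together, and with the replicate number as a block within these 2 groups IER2 fell (adjusted p = 7.71e-07), FOSL2 rose (adjusted p = 0.00163) and JUN stayed called (adjusted p = 0.00593). From 100 to 1000 pM no member was called: JUN changed by −0.11 ± 0.08 SE, IER2 by 0.06 ± 0.12 and FOSL2 by 0.09 ± 0.17 (limma adjusted p = 0.994 for each). In order of mean level JUN thus ran from vehicle and 0.1 to 3 pM through 10 pM to 100 and 1000 pM. Of its steps between neighbours only that from 10 to 100 pM was called by limma, while 10 pM was called lower than vehicle. A step without a call does not show that its groups were alike.

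**Figure D3:**
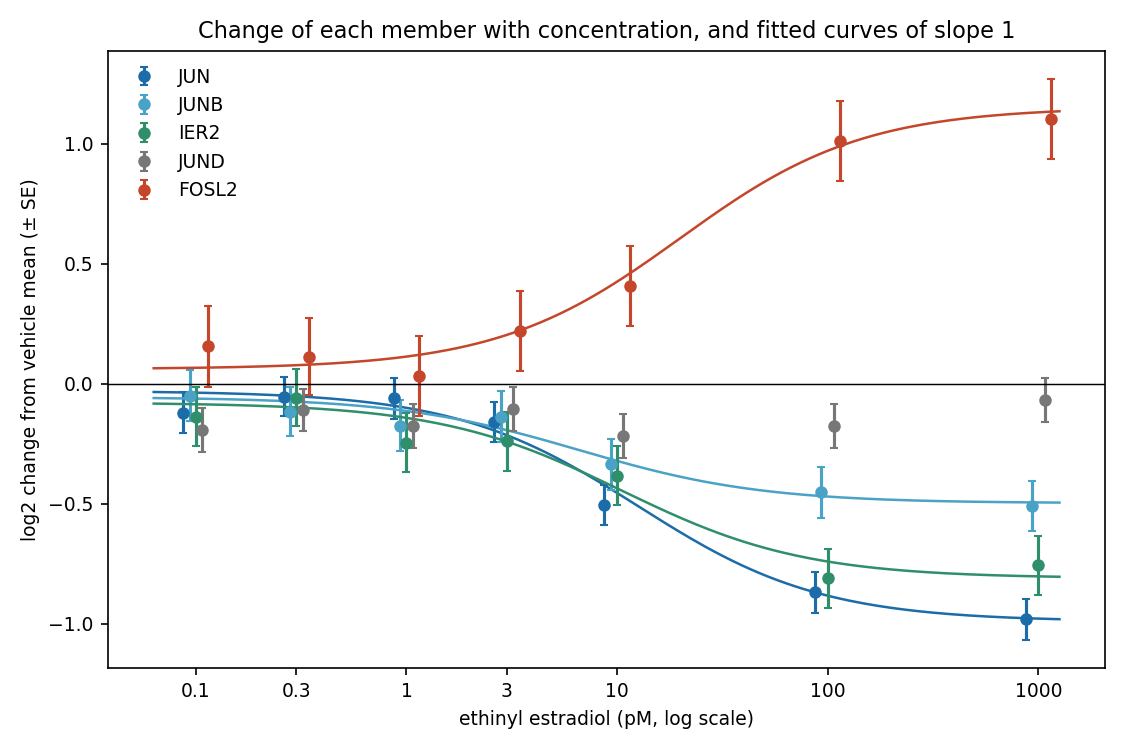
Log2 change from the vehicle mean (y axis, ± SE from limma) of the 5 tested genes at each concentration of ethinyl estradiol (x axis, pM, log scale), with fitted curves of slope 1 for the 4 that passed the F test. FOSL2 rises to 1.10 and JUN, IER2 and JUNB fall to −0.98, −0.76 and −0.51 at 1000 pM, with most of the movement between 3 and 100 pM.

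A curve of slope 1 gave the concentration at which each log2 change was at its midpoint. It was 12.6 pM for JUN (95% interval 7.94 to 20.9), 6.61 pM for JUNB (1.51 to 30.2), 10.5 pM for IER2 (3.63 to 31.6) and 20.0 pM for FOSL2 (7.94 to 55.0). The intervals overlap, and a difference between the midpoints was not tested. Without the 4 arrays of high actin difference the midpoints were 13.2 pM for JUN, 5.75 for JUNB, 14.5 for IER2 and 19.1 for FOSL2. PGR, the progesterone receptor and a textbook estrogen-induced gene, had its midpoint at 7.24 pM (6.03 to 9.12). The dimmer JUN probe set 201466_PM_s_at, whose means at 100 and 1000 pM lay under the floor, gave 3.63 pM (1.45 to 9.55).

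The contrast between FOSL2 and the subunits that fell was tested within each array, as the log2 level of FOSL2 minus that of the other gene, which cancels what an array does to both alike. JUN, JUNB and IER2 were called lower and FOSL2 higher on these same arrays, so a difference followed from those calls. Its p-value is therefore no separate support. The sizes share the uncertainty of FOSL2, whose vehicle mean of 4.12 lay at the floor. Relative to its vehicle mean, FOSL2 minus JUN ran from −0.43 through a median of 0.06 to 0.42 in vehicle, 0.50, 0.87 and 1.41 at 10 pM, 0.95, 2.08 and 2.28 at 100 pM, and 1.71, 2.15 and 2.30 at 1000 pM. Vehicle and the 3 highest concentrations did not overlap, and 100 and 1000 pM did. The difference of the changes was 1.88 ± 0.26 SE at 100 pM and 2.08 ± 0.18 SE at 1000 pM. For IER2 the corresponding values were 1.82 ± 0.15 and 1.86 ± 0.13, for JUNB 1.46 ± 0.25 and 1.61 ± 0.18, and for JUND, which was not called itself, 1.19 ± 0.15 and 1.17 ± 0.14. In all 8 comparisons the treated arrays lay above every vehicle array, and an exact permutation test, two-sided, gave p = 0.00216, the smallest that 6 arrays against 6 allow over 924 assignments. The 8 comparisons share the FOSL2 values and the 6 vehicle arrays, so they are not separate results. What share of all gene pairs separates in this way was not computed. With either other JUN probe set in place of the brightest, and with 228188_PM_at for FOSL2 throughout, the FOSL2 minus JUN difference lay between 1.71 and 2.20 at 1000 pM over these and all other alternatives.

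**Figure D4:**
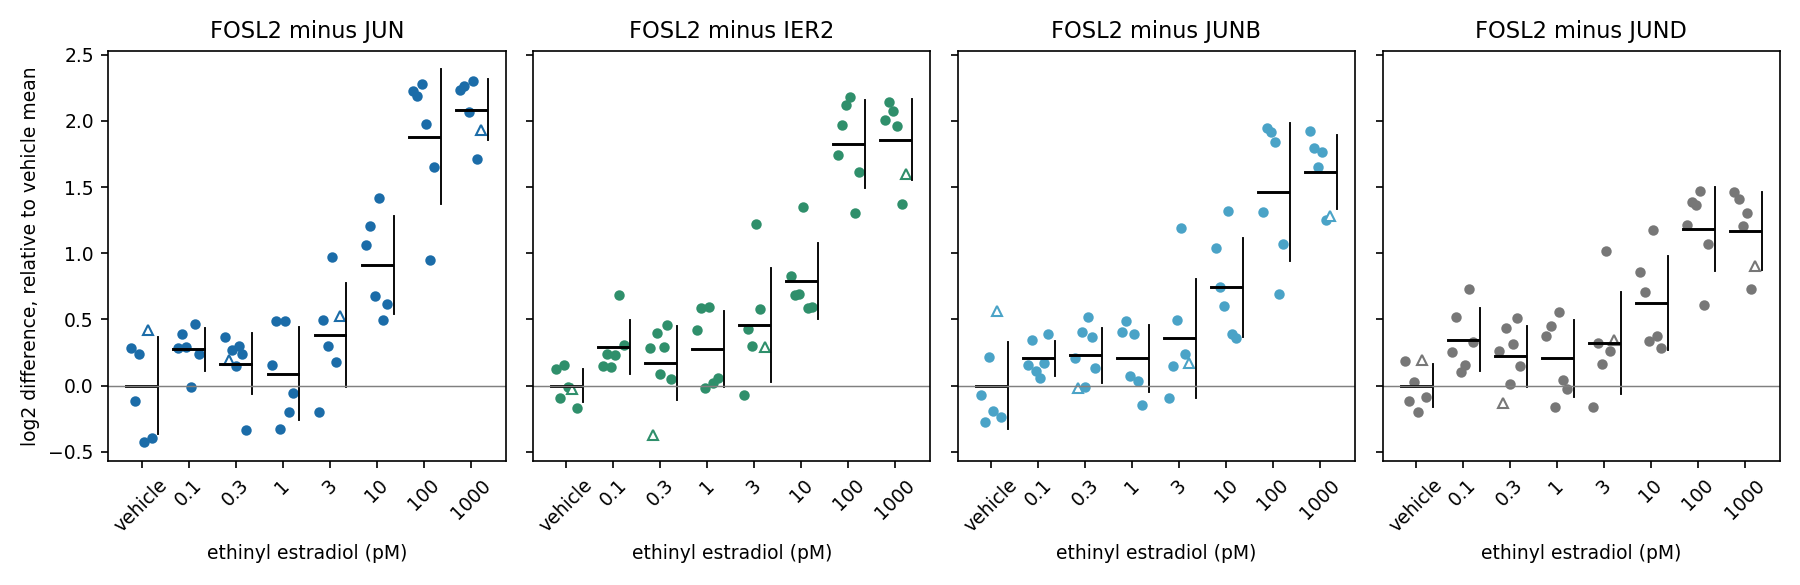
Log2 level of FOSL2 minus that of JUN, IER2, JUNB or JUND on each array (y axis, relative to the vehicle mean of that difference) by concentration of ethinyl estradiol (x axis, pM). Points are arrays, open triangles the 4 arrays with a high actin difference, horizontal bars group means and vertical bars ± 1 SD. At 100 and 1000 pM every point lies above every vehicle point in all 4 panels, with group means from 1.17 (JUND, 1000 pM) to 2.08 (JUN, 1000 pM).

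The other 6 pairs of tested genes were compared in the same way after the data had been seen. This brings the exact tests to 20, and their p-values are not adjusted. On these same arrays JUN, JUNB and IER2 were called lower and JUND was not. The p-values of the pairs with JUND are therefore no separate support. For these pairs too, the share of all gene pairs that separate in this way was not computed. JUND minus JUN differed from vehicle by 0.69 ± 0.14 SE at 100 pM and 0.92 ± 0.10 at 1000 pM, and JUND minus IER2 by 0.64 ± 0.07 and 0.69 ± 0.08, without overlap and with p = 0.00216 in each (exact permutation test, two-sided). JUND minus JUNB differed by 0.44 ± 0.10 SE at 1000 pM (exact p = 0.00216) and by 0.28 ± 0.14 at 100 pM (exact p = 0.0844). JUNB minus JUN differed by 0.42 ± 0.15 SE at 100 pM (exact p = 0.0216) and 0.47 ± 0.10 at 1000 pM (exact p = 0.00433), so JUN changed more than JUNB, but not with either other JUN probe set in its place (highest exact p = 0.686). JUNB minus IER2 differed by 0.36 ± 0.15 SE at 100 pM (exact p = 0.0346) and 0.25 ± 0.14 at 1000 pM (exact p = 0.0563); the first was lost without vehicle replicate 3 or 5, without 100 pM replicate 1, 4, 5 or 6, and without the 4 arrays (exact p = 0.0606). IER2 minus JUN differed by 0.06 ± 0.18 SE at 100 pM (exact p = 0.734) and 0.23 ± 0.14 at 1000 pM (exact p = 0.136), which does not show that the 2 genes changed alike.

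The genes whose levels most resembled those of JUN over the 49 arrays were PLK2, a polo-like kinase (Pearson r = 0.90), MEOX1, a homeobox factor (0.90), KRT80, a keratin (0.89), NRG1, the growth factor neuregulin (0.89), and MYADM, a myeloid-associated membrane protein (0.89). Those most like FOSL2 were OLFML3, a secreted olfactomedin-like protein (0.90), RBM24, an RNA-binding protein (0.87), NRTN, the neurotrophic factor neurturin (0.85), ANPEP, an aminopeptidase (0.85), and DLG5, a scaffold protein of cell junctions (0.84). These are descriptions, since the arrays share their concentrations. At 1000 pM the log2 changes of PLK2, MEOX1, NRG1 and MYADM ran from −0.86 to −0.80, and KRT80 went from a mean of 5.39 to 3.98, under the floor. DLG5, NRTN and ANPEP changed by 0.44, 1.67 and 3.13, with the vehicle mean of ANPEP (4.04) at the floor. OLFML3 and RBM24 went from vehicle means under the floor (3.89 and 2.21) to 5.98 and 4.18.

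Among other basic leucine zipper factors that can pair with AP-1 subunits, 16 of 23 listed genes were tested, and at 1000 pM 2 were called higher, 1 lower and 13 did not pass (median log2 change 0.02). Over all 11075 genes 2.58% were called higher and 3.77% lower, with a median of −0.01. CEBPD, a factor of the C/EBP family, rose by 0.62 (SE 0.07, limma adjusted p = 1.13e-09) and its relative CEBPB by 0.32 (SE 0.07, adjusted p = 7.62e-04). CREB3, a membrane-bound factor of the secretory pathway, fell by 0.22 (SE 0.06, adjusted p = 0.0315), a call that was lost when no filter on dim probe sets was used. ATF2 (0.14 ± 0.08 SE) and ATF4 (−0.01 ± 0.03), 2 other partners of JUN, did not pass. JDP2, which dimerizes with JUN and represses, was called lower at 100 pM (−0.23) and not at 1000 pM (−0.12 ± 0.05 SE).

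The kinases that carry growth factor and stress signals to AP-1 gave no call at 1000 pM by limma: of 20 listed genes 12 were tested, and their median change was −0.09. MAPK8 and MAPK9, which encode the kinases of JUN known as JNK1 and JNK2, changed by 0.16 ± 0.14 SE and −0.01 ± 0.05. MAPK3, which encodes ERK1, changed by −0.12 ± 0.12 SE. At 100 pM MAPK7, which encodes ERK5, was called lower (−0.43). Of 9 genes listed as SRF and TCF regulators 8 were tested, among them NAB1 and NAB2, which are corepressors of EGR factors. The median change of the 8 was −0.13, and 1 of them was called lower (3.77% of all genes). That gene, the TCF factor ELK3, fell by 0.26 (SE 0.06, adjusted p = 0.00176), and SRF itself changed by −0.19 ± 0.10 SE (adjusted p = 0.358).

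Other immediate early genes moved in both directions. Of 22 listed genes 16 were tested, 2 were called higher and 3 lower at 1000 pM, and 11 did not pass (median −0.12), against 2.58% higher and 3.77% lower of all genes. EGR3, a zinc-finger factor, was under the floor in vehicle (mean 2.42) and reached 5.62 at 1000 pM, at least 3.08-fold higher against the floor (limma adjusted p = 7.14e-20). It therefore entered the tests only through treated arrays, and its call is no separate support. IER5, a relative of IER2, rose by 0.25 (SE 0.06, adjusted p = 0.00284). CCN1, a matricellular protein, fell by 0.84 (SE 0.15, adjusted p = 1.48e-04), IER3, a survival factor, by 0.46 (SE 0.10, adjusted p = 0.0016, with its 1000 pM mean of 3.82 under the floor) and the zinc-finger factor KLF6 by 0.34 (SE 0.08, adjusted p = 0.00751). EGR1 (−0.31 ± 0.16 SE), MYC (0.30 ± 0.13) and DUSP1 (0.06 ± 0.11), 3 classical members of this class, did not pass.

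Of 24 genes listed as known AP-1 targets, 10 were tested, among which 3 were called lower at 1000 pM, none higher by limma and 7 did not pass, against 3.77% lower and 2.58% higher of all genes. The median change of the 10 was −0.18, and −0.27 at 100 pM, where that of all genes was −0.01 and −0.02. CCN2, a matricellular growth factor, fell by 1.26, from 7.96 to 6.70 (SE 0.18, adjusted p = 1.00e-06), MT2A, a metallothionein, by 0.36 (SE 0.07, adjusted p = 2.35e-04) and FN1, fibronectin, by 0.43 (SE 0.12, adjusted p = 0.0222). Without the 4 arrays FN1 was not called (−0.38 ± 0.13 SE, adjusted p = 0.0578). CCND1, the cyclin of early growth (−0.25 ± 0.14 SE), TIMP1, a protease inhibitor (−0.32 ± 0.12), and VEGFA, an angiogenic factor (0.12 ± 0.07), did not pass. The 14 genes not tested, among them the 5 matrix metalloproteinases of the list, had no probe set above the filter. Among 11 genes that control the turnover of JUN and FOS proteins or their mRNAs, 9 were tested and 1 was called lower at 1000 pM (median 0.01), where 3.77% of all genes were. It was ZFP36L1, which binds AU-rich mRNA ends, and it fell by 0.35 (SE 0.07, adjusted p = 9.08e-04), whereas the ubiquitin ligase components FBXW7 (0.01 ± 0.07 SE) and COP1 (−0.08 ± 0.05) did not pass.

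**Figure D5:**
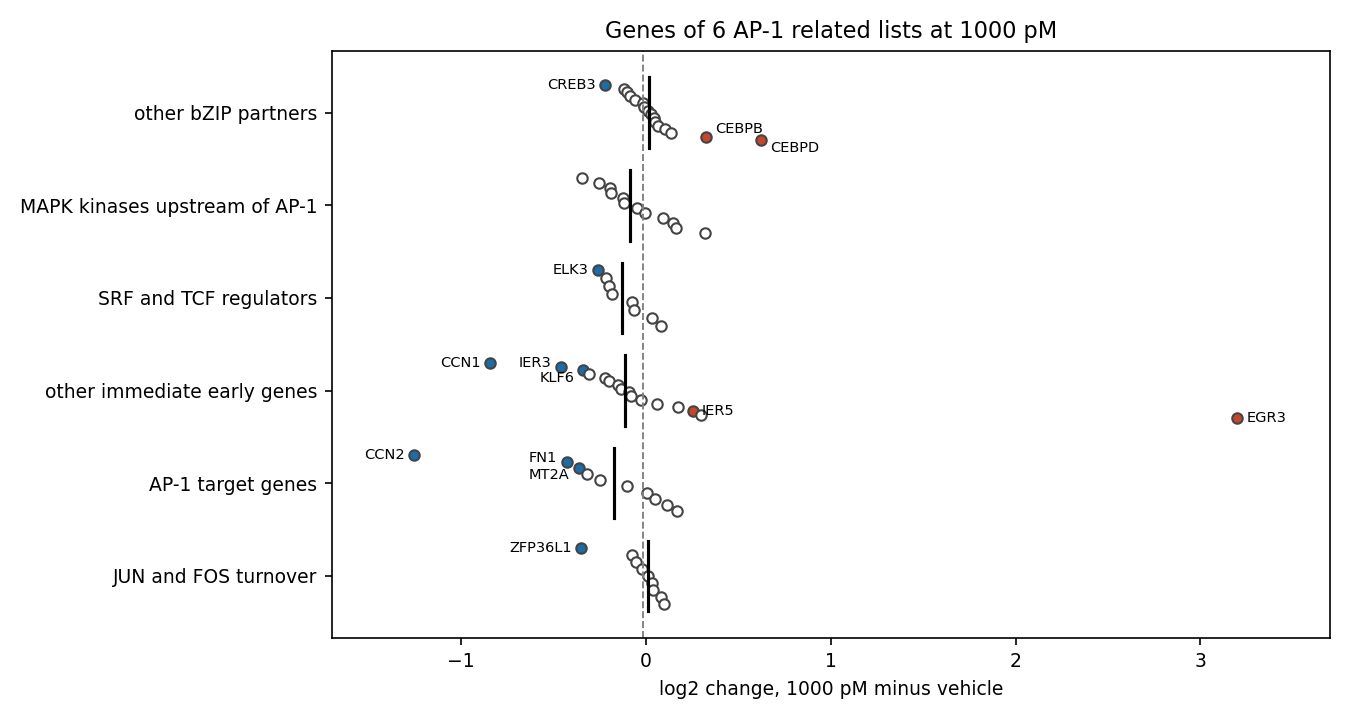
Log2 change at 1000 pM against vehicle (x axis) of every tested gene in 6 lists of AP-1 related genes (rows). Filled points are genes called by limma (blue lower, red higher) and are named, open points did not pass, black bars are list medians, and the dashed line is the median of all genes tested (−0.01). The list medians lie between −0.18 and 0.02, and EGR3 stands far to the right at 3.20, a value fitted from under the floor.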

How the data were processed

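Total RNA of each Ishikawa sample was amplified, biotin-labelled and read on 1 array, per the labels' protocols. The deposited values are log2 expression levels that the authors made with GCRMA and the Partek software, per the submitters' processing notes, which give no version; a genome build for the probe sets is not given in the sources used here. GCRMA compresses dim signals, so changes near or under the floor understate or misstate a fold, and the number of arrays limits the precision.

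Genes were named from the platform annotation, updated through the Entrez identifier (40864 of 40920 probe sets with 1 symbol matched, 0 symbols changed; 864 had several symbols and 12931 none). Probe sets above a log2 value of 4 on at least 6 arrays entered the tests (22721). All of them were fitted with limma 3.58.1 (R 4.3.3) on the means of the 8 groups, with an intensity trend; p-values were adjusted by Benjamini-Hochberg for each contrast on its own, with calls under 0.05. The entering probe set of highest mean stood for its gene (11075 genes). Differences between 2 members were tested by exact permutation over arrays (SciPy 1.17.1), and the scripts were tested on simulated data. Gene changes are relative to all genes, whose median lay at −0.01 at 1000 pM.

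The members, the 6 gene lists (other basic leucine zipper partners, MAP kinases, SRF and TCF regulators, other immediate early genes, AP-1 targets, JUN and FOS turnover), the cell markers and the 4 arrays set apart were chosen with earlier results of these data known. Named genes were every member with an entering probe set, up to 5 called genes of each list by size of change at 1000 pM, examples that did not pass, the 5 genes best correlated with JUN and with FOSL2, and PGR. Members of lists that did not pass, and those called at 100 pM alone, were picked after their values were seen.

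The labels name no batch, so the pairing of arrays by replicate number was checked on the data. Deviations from the group means had to correlate above 0.1 in all 6 same-numbered pairs. This held for 3 steps, 1 to 3 pM (lowest correlation 0.131), 3 to 10 pM (lowest 0.168) and 10 to 100 pM (lowest 0.295), but for none of the comparisons with vehicle. Alternatives changed the filter, the choice of probe set, the normalization, the variance prior, the weight of arrays, the arrays in the fit, the block and the threshold.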

Additional observations from a re-analysis of the deposited data

Results flagged for a closer look

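Among the 40 groups formed by 5 genes and 8 conditions, 5 held an array whose gap to its nearest neighbour was large for the range of its group, where chance alone marks about 1 in 20 groups. The highest IER2 level in vehicle was 9.34 (replicate 5), with the next at 8.70, and the highest at 0.3 pM was 9.26 (replicate 2), with the next at 8.59. The highest JUND level at 3 pM was 9.95 (replicate 6), with the next at 9.74. These 3 values came from arrays with a high beta-actin difference, and the part of that difference in them was not tested. The other 2 came from arrays without it: the lowest JUN level at 10 pM was 6.36 (replicate 2), with the next at 6.68, and the lowest JUNB level at 0.1 pM was 4.60 (replicate 6), with the next at 4.90. Without 10 pM replicate 2, JUN at 10 pM kept its call.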

How the results depend on the processing

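Of 820 recomputed changes of single probe sets none reversed a call, 767 kept their side of the threshold, 34 lost a call and 19 gained one, and 6 changes that were not called had the other sign. At 1000 pM the calls of JUN, JUNB, IER2 and FOSL2 and the missing call of JUND were the same under every alternative. The 8 differences between FOSL2 and another gene also kept their call throughout (those with 225262_PM_at, under the floor in vehicle, are no separate support), and of all 328 recomputed differences 13 lost a p under 0.05 and 8 gained one. At 10 pM the call of JUN was lost when only vehicle and 10 pM were fitted (adjusted p = 0.132), which left 0 genes called lower. In the step from 10 to 100 pM, the number called lower, 1 in the report, was 0 with the mean of a gene's probe sets or an adjusted p under 0.01, and 2 with array weights, without the 4 or the 2 arrays of high actin difference, or with that difference as a covariate. The number called higher, 0 in the report, was 1 under each of these except the stricter threshold. Leaving out 1 array at a time gave 0 to 1 for both. The alternatives chosen after seeing the data were the replicate blocks within neighbouring groups, the leaving out of single arrays for counts, and the list genes without the 4 arrays. The block within 10 and 100 pM gave 2 lower and 1 higher, and those within 1 and 3 pM and within 3 and 10 pM gave 0 calls by limma. With the replicate number as a block over all groups, which the pairing check did not support against vehicle, JUN 201465_PM_s_at became called at 1000 pM (adjusted p = 0.031) and no representative probe set changed its call there. Without a filter on dim probe sets 0 basic leucine zipper partners were called lower. The 12 recomputed midpoints stayed close to those reported. Levels under 4 are not read here, which limits FOS, FOSB, FOSL1, ATF3 and the vehicle level of FOSL2.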

Other observations

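Apart from the concentration, the tested genes also varied between arrays of the same group, and this was compared for the 10 pairs of the 5 genes over the 49 arrays as deviations from the group means, permuted within groups. JUND and IER2 deviated together, with Pearson r = 0.84 and Spearman rho = 0.69 (permutation p = 1e-05 for each, the smallest that 100000 resamples can give, and 0.0001 for each after Benjamini-Hochberg adjustment over the 10 pairs). Without the 2 arrays farthest from the median of JUND r was 0.73, and without the 4 arrays of high actin difference it was 0.67. JUNB and IER2 had r = 0.51 and rho = 0.44 (permutation p = 0.00161 and 0.00412, adjusted 0.0073 and 0.0206), but r = 0.34 without the 2 arrays farthest from the median of JUNB and 0.28 without the 4 arrays. JUNB and JUND had r = 0.47 and rho = 0.38 (permutation p = 0.00219 and 0.0109, adjusted 0.0073 and 0.0363), and r = 0.32 without the 2 arrays farthest from the median of JUNB and 0.23 without the 4 arrays. IER2 and FOSL2, which moved in opposite directions along the concentrations, had r = 0.38 (permutation p = 0.0145, adjusted 0.0363) and rho = 0.27 (permutation p = 0.0654, adjusted 0.164), and r = 0.27 without the 2 arrays farthest from the median of IER2 and 0.24 without the 4 arrays. JUN and FOSL2, which also moved in opposite directions along the concentrations, had r = −0.09 and rho = −0.10 within groups (permutation p = 0.617 and 0.525, adjusted 0.686 and 0.583). Both genes of a pair are read on the same array, and the part of array quality in these values was not tested.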
